A study of Arabidopsis thaliana with 6 samples.

Results

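Late embryogenesis abundant (LEA) genes, with the dehydrins and the COR15 pair among them, were followed by RNA-seq in *Arabidopsis thaliana* seedlings at the age of 14 days. The 52 genes were taken by locus identifier as LEA protein genes of every class, and they are 52 of the 32833 genes that the count files list. The libraries came from wild type Col-0 and from the mutants *fio1-1* and *fio1-2* in that background, 2 libraries of each genotype, untreated and under long days. FIO1 is the plant relative of the RNA methyltransferase METTL16, *fio1-1* is a splice-site allele, and *fio1-2*, the name in the labels, appears to stand for the CRISPR line called *fio1-5* by the study. Each mutant is a single line, each library is a pool of seedlings, and the study does not say whether the pools were grown apart, so the p-values below measure the spread between these pools. The comparisons ask how LEA transcripts differ when FIO1 is impaired, and whether genes of the seed type and of the vegetative type, told apart by their Col-0 level, differ alike in both alleles.

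LEA proteins are small, very hydrophilic proteins that protect membranes and other proteins when a cell loses water. Many are made late in embryo development, under the control of abscisic acid (ABA) and of the regulators ABI3, FUS3 and ABI5, and fade after germination. Others, such as the dehydrins COR47, ERD10 and ERD14 and the chloroplast proteins COR15A and COR15B, are made in leaves and roots and rise with cold, drought or ABA. The classes carry Pfam-style names here, among them LEA_4 (proteins with repeated short helices), LEA_5 (the Em proteins of dry seeds), SMP (seed maturation proteins) and the dehydrins, which share a lysine-rich segment.

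Library totals lay between 9717111 and 13055457 counts, and the Pearson's r across genes between libraries of a genotype was 0.989 in each of the 3 pairs. Levels are TMM-scaled counts relative to library size (CPM). A gene was called when its limma-voom adjusted p, taken over all 21268 genes tested, was under 0.05 and its log2 fold change was at least 1 in size. Where a group held 3 or fewer counts in sum, the ratio of summed counts is given with its 95% exact conditional interval, or a lower bound where the group was at 0 (3 counts summed over the group, 0.149 CPM in Col-0 and in *fio1-1*), and such intervals cover counting error only. In bulk samples, fewer cells of a type and less RNA per cell cannot be told apart.

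In each mutant more LEA genes were called higher than lower against wild type, and *fio1-2* had the greater number. Of the 52 genes, 42 had enough counts to be tested. In *fio1-1*, 14 of the 42 were called higher than in wild type (2.92% of all genes tested were) and 1 lower (1.99%). The 14 became 9 without Col-0 replicate 1 and likewise without *fio1-1* replicate 1. In *fio1-2*, 27 were called higher (4.24% of all genes tested) and 1 lower (1.7%). Set against each other, *fio1-2* was called higher than *fio1-1* for 21 (2.13%) and lower for none (0.545%), with 4 lower at an unadjusted limma-voom p under 0.05 and none by edgeR or DESeq2. By the adjusted p alone, 18 were higher and 5 lower in *fio1-1* (14.2% and 14.3% of all genes tested), 32 higher and 3 lower in *fio1-2* (16.4% and 16.1%), and 26 higher and 2 lower in *fio1-2* against *fio1-1* (9.31% and 8.76%). The median log2 fold change of the 42 was 0.87 in *fio1-1* and 2.23 in *fio1-2*, where that of all genes tested was 0.01 and 0.00.

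The filter on low counts bears on these numbers. It kept 13 of the 42 genes only because of their counts in *fio1-2*, where most of them were high, so their higher calls in *fio1-2* are a description of how they came to be tested. They are EM1, LEA, ECP63, AT1G72100, AT5G66780, XERO1, AT2G23110, M10, AT5G44310, AT4G36600, AT3G22490, RAB28 and AT2G18340, the last with a lower value in *fio1-2* than in Col-0 (log2 fold change -0.64). Of the other 29, 11 were called higher in *fio1-1* (2.92% of all genes tested were), 16 in *fio1-2* (4.24%), and 11 in *fio1-2* against *fio1-1* (2.13%). Both mutants were compared with the same Col-0 libraries, so their values against wild type are not independent.

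**Figure D1:**
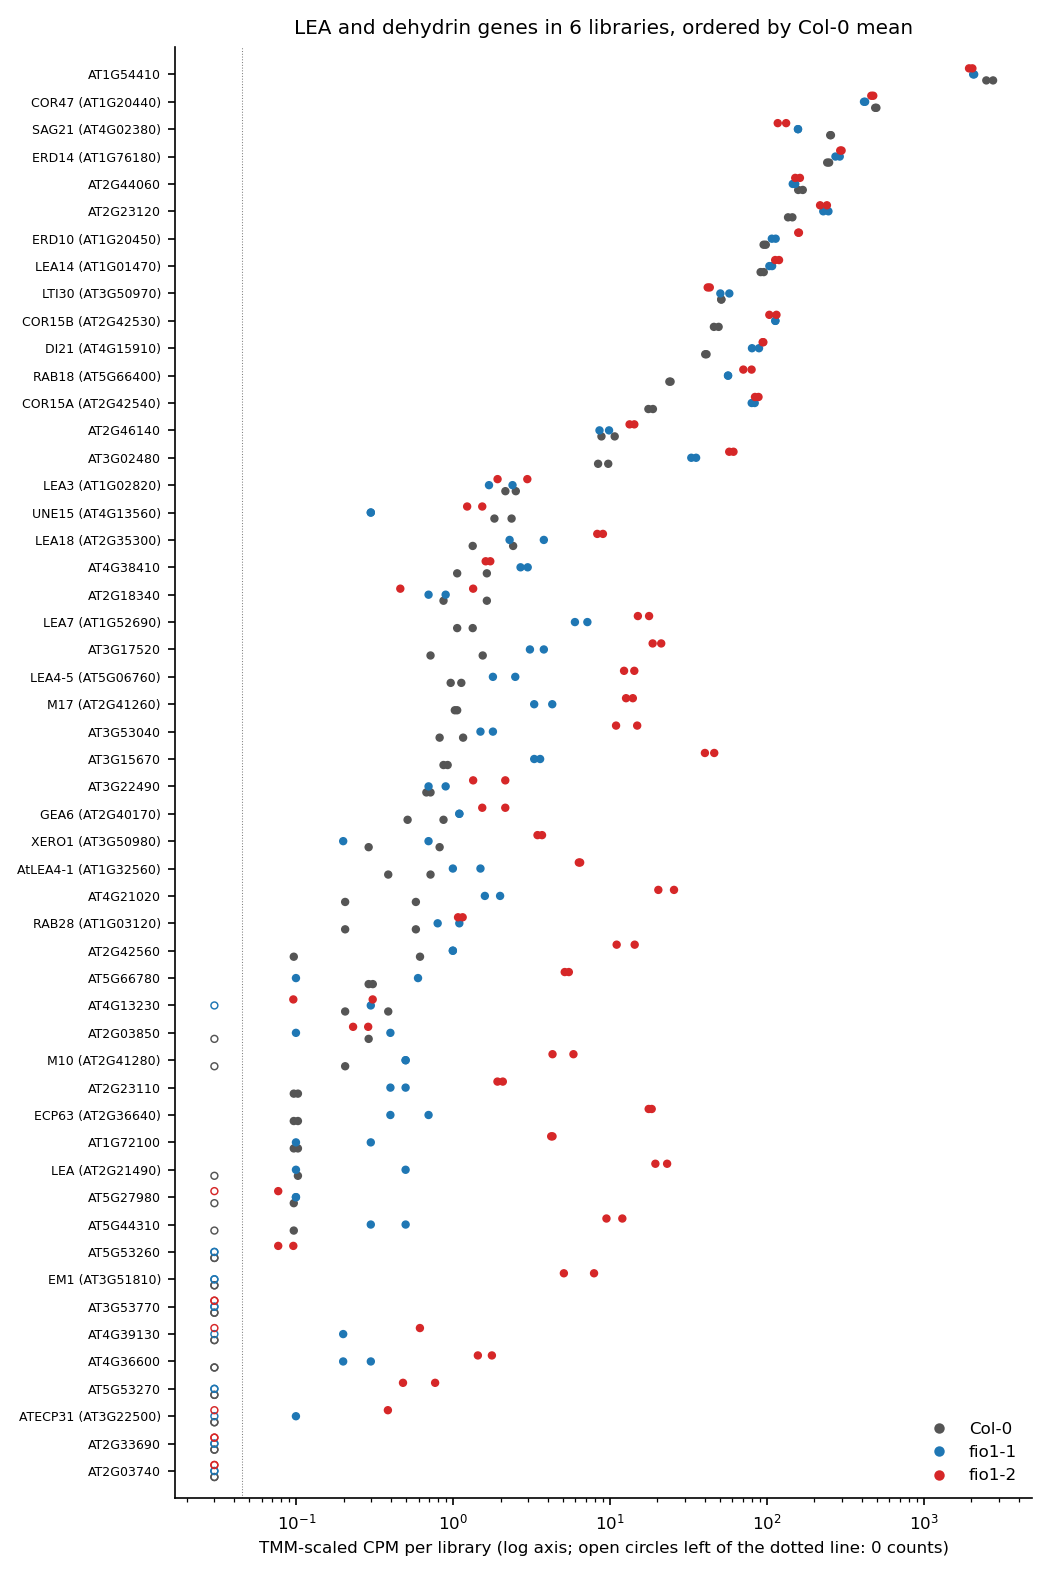
Level of each of the 52 LEA and dehydrin genes in each of the 6 libraries, as TMM-scaled CPM on a log axis, ordered by the Col-0 mean. Genes at the top lie close together in all libraries, whereas most genes under about 2.32 CPM in Col-0 have *fio1-2* points to the right of the others.

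The division by wild-type level was set at a Col-0 mean of 1 CPM. It put 28 genes on the low side and 24 on the expressed side, with AT3G53040 just inside the low side at 0.986 CPM and M17 just outside at 1.04 CPM. Of the 18 low genes tested, 12 had passed the filter only through *fio1-2*, against 1 of the 24 expressed genes. In *fio1-1*, 5 of the 18 were called higher, but 3 with edgeR, 2 with DESeq2 and 2 with any 1 of the 6 libraries left out. Their median log2 fold change in *fio1-1* was 1.51 (1.21 with sparse genes at their ratio or bound), and 0.96 without *fio1-1* replicate 1 or 0.99 without Col-0 replicate 2. Of the 24 expressed genes, 9 were called higher in *fio1-1* and 10 in *fio1-2*, and 1 in each mutant lower, with medians of 0.44 and 0.61. Over all genes tested, 2.92% were called higher in *fio1-1*, 4.24% in *fio1-2* and 2.13% in *fio1-2* against *fio1-1*. The shares called lower against wild type were 1.99% and 1.7%. The 6 low genes that passed the filter without *fio1-2* were all called higher in *fio1-2* than in Col-0, with a median of 4.52, and 5 of them higher than in *fio1-1*, with a median of 3.28. In the same contrast of the mutants, 6 of the 23 expressed genes that passed without *fio1-2* were called higher, with a median of 0.16. The Col-0 libraries set the division, so values against wild type are a description of it.

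The levels themselves leave a gap between 2.32 CPM (LEA3) and 9.04 CPM (AT3G02480), and a division at 5 CPM falls into it. Under it lie 37 genes, of which 27 were tested, 13 of them only through their counts in *fio1-2*. Of the 14 others under it, 6 were called higher in *fio1-1* (2.92% of all genes tested were), 11 in *fio1-2* (4.24%) and 11 in *fio1-2* against *fio1-1* (2.13%). All 15 genes above it passed the filter without *fio1-2*. Of these 15, 5 were called higher in *fio1-1* (2.92% of all genes tested) and 5 in *fio1-2* (4.24%). None of the 15 was called higher in *fio1-2* against *fio1-1* by limma-voom, although 5 passed the adjusted p alone in that direction and 2 in the other. Summed over the 37 genes, the level was 20.1 ± 0.189 CPM in Col-0, 40.9 ± 1.21 in *fio1-1* and 260.0 ± 22.3 in *fio1-2* (SD, n = 2 each). Summed over the 15 genes, it was 4452 and 4163 CPM in Col-0, 3945 and 3976 in *fio1-1*, and 4069 and 3952 in *fio1-2*. AT1G54410 made up most of the latter sum, and the 14 genes without it summed to 1699 and 1669 CPM in Col-0, 1889 and 1890 in *fio1-1* and 2036 and 2017 in *fio1-2*. Thus the sum of the 37 genes was higher in steps without overlap. That of the 15 genes was lower in both mutants with AT1G54410 and higher without it.

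**Figure D2:**
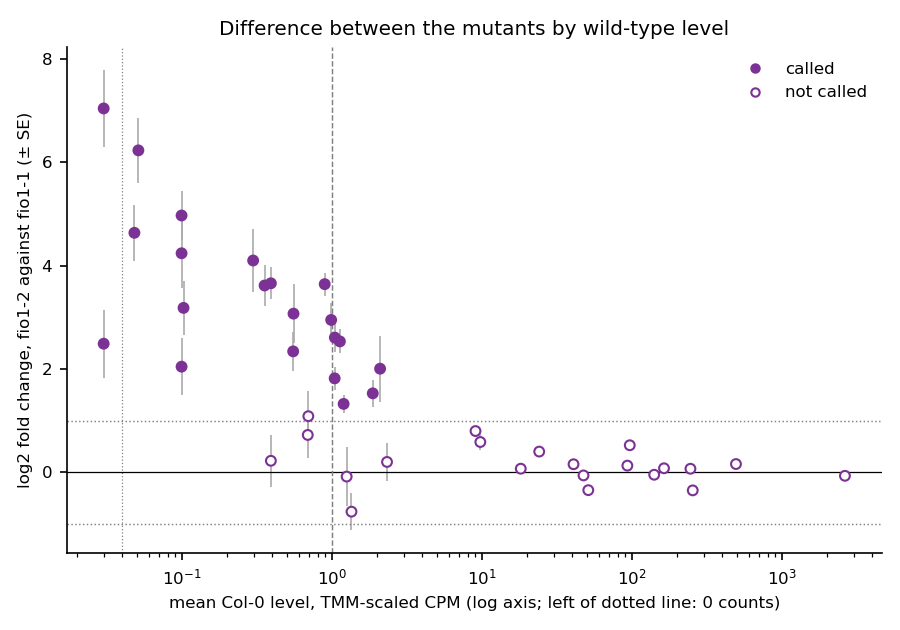
Log2 fold change of *fio1-2* against *fio1-1* (limma-voom, ± SE) for each of the 42 genes tested, against the mean Col-0 level on a log axis, with filled points for called genes. Called genes all lie under 2.32 CPM in Col-0, and the values of the sparsest genes, such as EM1 with no count in *fio1-1*, depend on the fit's offset and are not bounds.

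Wide differences between the alleles occurred in seed-type genes with hardly a read in wild type. The genes of this paragraph all passed the filter only through their counts in *fio1-2*. Their differences thus describe how they came to be tested. EM1 (AT3G51810, chr3:19214722-19215831 in TAIR10.1), a LEA_5 gene of dry seeds, had 0 counts in both Col-0 and both *fio1-1* libraries and 53 and 103 counts in *fio1-2*, or 5.06 and 7.88 CPM. It was at least 44.6-fold higher in *fio1-2* than in Col-0 and at least 44.5-fold higher than in *fio1-1*, values that also brought it through the filter. LEA (AT2G21490, chr2:9205990-9207125), a dehydrin gene, had 1 and 0 counts in Col-0, 5 and 1 in *fio1-1* and 203 and 301 in *fio1-2*. Both *fio1-2* libraries, at 19.4 and 23.0 CPM, stood far above the 4 others. The ratio to Col-0 was 432 (95% interval 77.2 to 17106) and the ratio to *fio1-1* 71.9 (95% interval 32.8 to 197). ECP63 (AT2G36640), a LEA_4 gene named after an embryonic cell protein, had 1 count in each Col-0 library, 4 and 7 in *fio1-1* and 184 and 240 in *fio1-2*. Its ratio to Col-0 was 182 (95% interval 50.0 to 1506) in *fio1-2* and 5.51 (95% interval 1.20 to 51.2) in *fio1-1*, where it was not called (limma-voom adjusted p = 0.0756), although edgeR and a limma-voom fit with the replicate number as a block called it. AT1G72100, also of LEA_4, had 1 count in each Col-0 library, 3 and 1 in *fio1-1*, but 44 and 56 in *fio1-2*.

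The sequence upstream of a few of these genes is shown, because the bZIP and B3 factors that act on LEA genes in seeds read short elements there. Each stretch is 60 bases, taken within 500 bases before the start codon and outside annotated exons, and read 5′ to 3′ on the gene's strand from the RefSeq TAIR10.1 genome. Capitals mark ACGTG, the core of the ABA-responsive element, CATGCA, the RY element, and CCGAC, the core of the cold- and drought-responsive element, on either strand. Each stretch was chosen because it held the most such matches among those of its length. It therefore does not stand for the 500 bases as a whole. The stretches are EM1 at chr3:19214606-19214665 (plus strand), GEA6 at chr2:16780383-16780442 (minus strand), LEA at chr2:9207129-9207188 (minus strand), ECP63 at chr2:15358725-15358784 (minus strand), AT1G72100 at chr1:27127085-27127144 (plus strand), AT5G44310 at chr5:17849566-17849625 (minus strand) and AT4G21020 at chr4:11228074-11228133 (plus strand).

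EM1: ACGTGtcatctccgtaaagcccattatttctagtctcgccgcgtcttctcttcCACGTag
GEA6: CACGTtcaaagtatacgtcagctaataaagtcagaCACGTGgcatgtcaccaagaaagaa
LEA: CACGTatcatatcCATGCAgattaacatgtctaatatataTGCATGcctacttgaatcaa
ECP63: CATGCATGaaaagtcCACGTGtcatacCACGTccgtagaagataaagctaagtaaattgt
AT1G72100: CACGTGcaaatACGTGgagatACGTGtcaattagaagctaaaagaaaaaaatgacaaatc
AT5G44310: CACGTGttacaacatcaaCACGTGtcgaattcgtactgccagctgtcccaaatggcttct
AT4G21020: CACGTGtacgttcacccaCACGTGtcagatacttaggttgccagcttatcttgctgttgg

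In ECP63 the RY letters stand beside an ABA-responsive core, and in LEA 2 RY matches follow 1 such core. The stretches of AT5G44310 and AT4G21020 each hold the palindrome CACGTG in 2 places, which counts as 2 overlapping matches of ACGTG each time.

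A set of 12 genes was called higher in *fio1-2* against both Col-0 and *fio1-1*, and not in *fio1-1* against Col-0, of which 7 had passed the filter only through *fio1-2*. Besides EM1, LEA, ECP63 and AT1G72100 it held AT2G42560 and AT3G53040 of LEA_4, the 3 LEA_1 genes, the dehydrin gene XERO1, AT2G23110 of the PvLEA18 class, and AT5G66780, which has no class here. AT2G42560 had 6 and 1 counts in Col-0, 10 in each *fio1-1* library and 115 and 187 in *fio1-2*. That is a log2 fold change of 5.39 (SE 0.621) in *fio1-2* and 3.61 (SE 0.401) between the mutants. AT3G53040 had 0.818 and 1.15 CPM in Col-0, 1.49 and 1.79 in *fio1-1* and 10.9 and 14.8 in *fio1-2*, with no overlap between the *fio1-2* libraries and the rest. AT5G66780 had 3 counts in each Col-0 library, 6 and 1 in *fio1-1* and 57 and 67 in *fio1-2*. Its log2 fold change in *fio1-2* was 3.94 (SE 0.594). This gene passed the filter only through its counts in *fio1-2*, so its difference describes how it came to be tested.

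The LEA_1 genes encode small proteins that protect enzymes from drying in the test tube, and all 3 were called higher in *fio1-2*. AtLEA4-1 (AT1G32560) was at 0.715 and 0.385 CPM in Col-0, 1.49 and 0.993 in *fio1-1* and 6.31 and 6.43 in *fio1-2*. LEA4-5 (AT5G06760), which is known to rise under water deficit, was at 1.12 and 0.962 CPM in Col-0, 2.48 and 1.79 in *fio1-1* and 14.2 and 12.2 in *fio1-2*. LEA18 (AT2G35300) was at 1.33 and 2.40 CPM in Col-0, 2.28 and 3.77 in *fio1-1* and 8.98 and 8.27 in *fio1-2*. In each of the 3 the *fio1-2* libraries lay above all others, while the *fio1-1* and Col-0 libraries of LEA18 overlapped. Their log2 fold changes were 3.49, 3.59 and 2.22 in *fio1-2* and 2.34, 2.61 and 1.53 between the mutants, all with a limma-voom adjusted p of 5.44e-06 or less. In *fio1-1* they were 1.15, 0.99 and 0.69 and none was called, although 1 of the 3 had an unadjusted limma-voom p under 0.05 and LEA4-5 was called by edgeR (0 by DESeq2).

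XERO1 (AT3G50980) encodes a small basic dehydrin. It was at 0.818 and 0.289 CPM in Col-0, 0.695 and 0.199 in *fio1-1* and 3.44 and 3.67 in *fio1-2*, so that Col-0 and *fio1-1* overlapped and *fio1-2* stood apart. The log2 fold change was 2.75 (SE 0.529) in *fio1-2* and 3.07 (SE 0.570) between the mutants. XERO1 and AT2G23110 passed the filter only through their counts in *fio1-2*, so their differences describe how they came to be tested. AT2G23110 had 1 count in each Col-0 library, 5 and 4 in *fio1-1* and 20 and 27 in *fio1-2*. It was called between the mutants at a ratio of 4.47, and this call was lost with DESeq2 and without either *fio1-1* library (limma-voom adjusted p = 0.0769 and 0.0987).

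A further 8 genes rose in both mutants and again from *fio1-1* to *fio1-2*, among them 6 of LEA_4 and the neighbours M17 and M10. AT3G15670 was at 0.920 and 0.866 CPM in Col-0, 3.57 and 3.28 in *fio1-1* and as much as 40.1 and 46.0 in *fio1-2*. This LEA_4 gene rose by 1.88 (SE 0.446) in *fio1-1* and 5.52 (SE 0.396) in *fio1-2* on the log2 scale, with a gap of 3.64 between the mutants (SE 0.221; limma-voom adjusted p = 2.34e-22). AT4G21020 was at 0.204 and 0.577 CPM in Col-0, 1.59 and 1.99 in *fio1-1* and 20.3 and 25.5 in *fio1-2*. AT3G17520 was at 0.715 and 1.54 CPM in Col-0, 3.08 and 3.77 in *fio1-1* and 18.6 and 21.1 in *fio1-2*. LEA7 (AT1G52690), which is known to respond to several stresses, had 13 and 11 counts in Col-0, 60 and 72 in *fio1-1* and 157 and 231 in *fio1-2*. In each of these 4 genes the libraries of the 3 genotypes formed separate steps. The *fio1-1* calls of AT4G21020 (log2 fold change 2.18) and AT3G17520 (1.63) were lost without Col-0 replicate 1, where the values were 1.54 and 1.12. LEA7 overlaps AT1G52695 on the opposite strand, and strand use in counting is not stated, so its counts are uncertain.

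M17 (AT2G41260) and M10 (AT2G41280) belong to the AtM class, first found as messages of maturing seeds. M17 was at 1.02 and 1.06 CPM in Col-0, 3.28 and 4.27 in *fio1-1* and 12.6 and 13.9 in *fio1-2*, with log2 fold changes of 1.80 (SE 0.416) and 3.62 (SE 0.377). M10 had 2 and 0 counts in Col-0, 5 and 5 in *fio1-1* and 61 and 56 in *fio1-2*, a ratio to Col-0 of 5.01 (95% interval 1.07 to 47.0) in *fio1-1* and 50.2 (95% interval 13.6 to 419) in *fio1-2*. Both genes thus kept the order Col-0, *fio1-1*, *fio1-2*. M10 passed the filter only through its counts in *fio1-2*, so its higher values there describe how it came to be tested.

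The remaining members of this set, AT5G44310 and AT4G36600, were sparse. Both passed the filter only through their counts in *fio1-2*, so their higher values there describe how they came to be tested. AT5G44310 had 0 and 1 counts in Col-0, 3 and 5 in *fio1-1* and 99 and 156 in *fio1-2*. AT4G36600 had 0 counts in Col-0, 2 and 3 in *fio1-1* and 15 and 23 in *fio1-2*, at least 1.67-fold higher than Col-0 in *fio1-1* and at least 10.9-fold higher in *fio1-2*. The calls of AT4G36600, AT5G44310 and M10 in *fio1-1* (limma-voom adjusted p = 0.0281, 0.0407 and 0.0403) were lost with edgeR and with DESeq2. Leaving out any 1 library also ended the first and the second of these calls, and ended that of M10 with 5 of the 6 libraries, the exception being Col-0 replicate 1. The call of AT4G36600 between the mutants was lost with DESeq2 and without either *fio1-1* library.

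**Figure D3:**
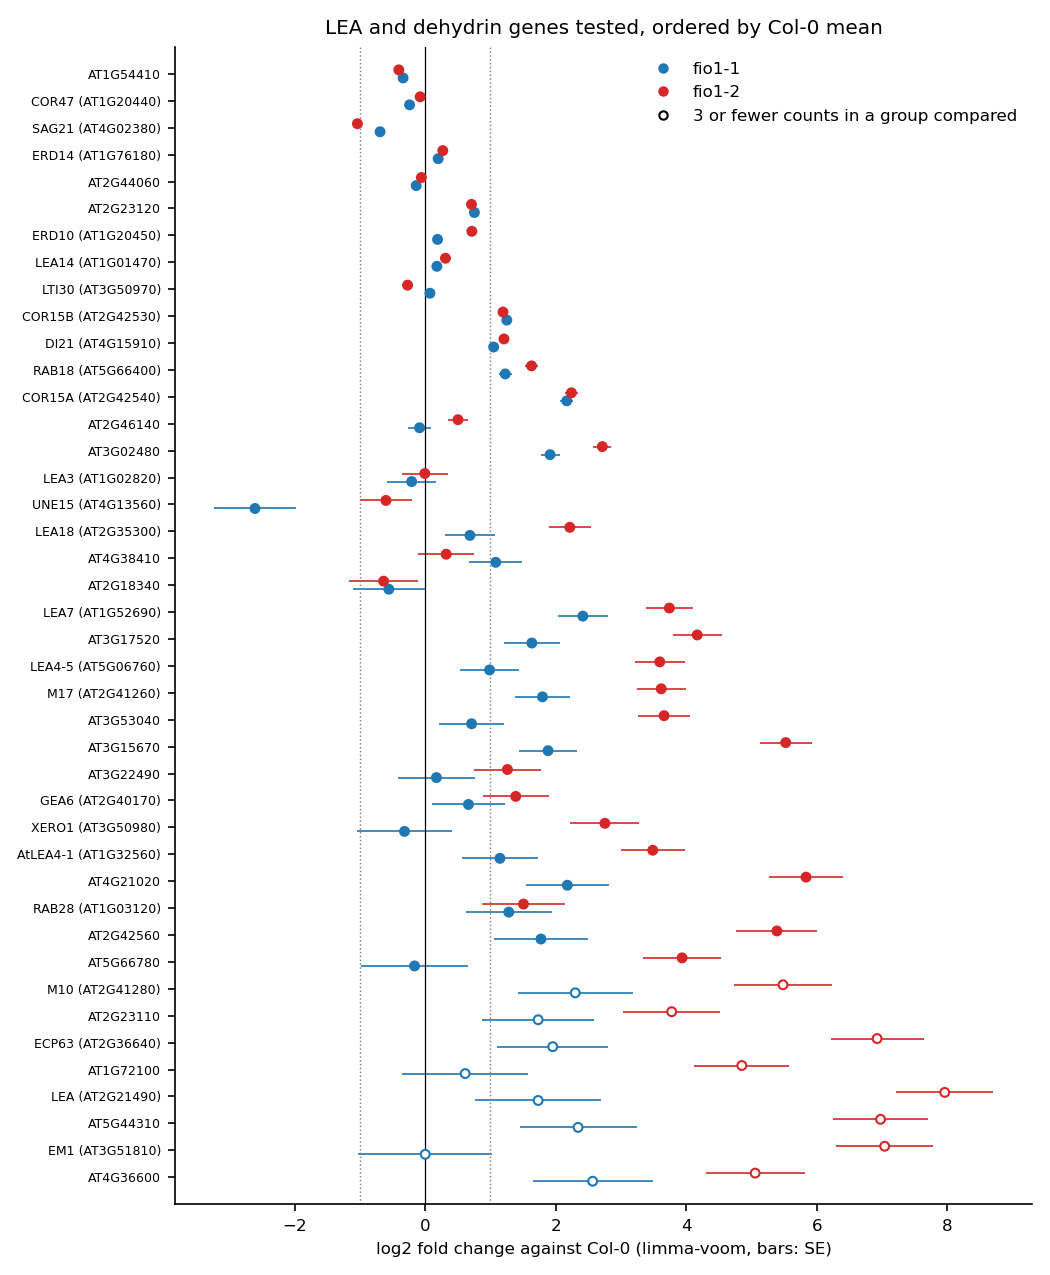
Log2 fold change against Col-0 (limma-voom, bars SE) of the 42 genes tested, in *fio1-1* and *fio1-2*, ordered by the Col-0 mean, with dotted lines at 1 and -1. Open points have 3 or fewer counts in a group compared and depend on the fit's offset, and in the lower part of the plot nearly all *fio1-2* points lie to the right of the *fio1-1* points.

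The second Em gene moved far less than EM1. GEA6 (AT2G40170), known as EM6 and made in the last phase of seed drying, had 5 and 9 counts in Col-0, 11 and 11 in *fio1-1* and 16 and 28 in *fio1-2*. Its levels were 0.511 and 0.866, 1.09 and 1.09, and 1.53 and 2.14 CPM, in ascending order of genotype with no overlap. It was called in *fio1-2* with a log2 fold change of 1.39 (SE 0.508, limma-voom adjusted p = 0.0281), and this call was lost with DESeq2, without either Col-0 library and without *fio1-2* replicate 2. Per kb of exon, GEA6 lay above EM1 in Col-0 (0.956 against 0 CPM per kb), and EM1 above GEA6 in *fio1-2* (6.999 against 2.55). AT3G22490, of the SMP class, was at 0.715 and 0.673 CPM in Col-0, 0.893 and 0.695 in *fio1-1* and 1.34 and 2.14 in *fio1-2*. Its call in *fio1-2* (log2 fold change 1.26) was lost under 8 of the 14 other fits, and it overlaps AT3G22480 on the opposite strand. AT3G22490 passed the filter only through its counts in *fio1-2*, so this call describes how it came to be tested.

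Among the genes that wild-type seedlings expressed, 5 were called higher in both mutants and not called between them. COR15A (AT2G42540, chr2:17710441-17712330), which encodes a chloroplast protein that steadies membranes during freezing, was at 18.7 and 17.5 CPM in Col-0, 79.7 and 83.3 in *fio1-1* and 88.1 and 83.7 in *fio1-2*. Neither mutant overlapped with Col-0, and they lay close together. The log2 fold changes were 2.17 (SE 0.102) and 2.24 (SE 0.101), with a limma-voom adjusted p of 1.56e-28 and 1.15e-29, and the gap between the mutants was 0.07 (SE 0.0634; limma-voom adjusted p = 0.498). COR15B (AT2G42530), its neighbour and close copy, was at 49.1 and 45.8 CPM in Col-0, 113 and 113 in *fio1-1* and 115 and 103 in *fio1-2*, with log2 fold changes of 1.25 and 1.19. RAB18 (AT5G66400), an ABA-responsive dehydrin gene, was at 23.8 and 24.2 CPM in Col-0, 56.3 and 56.4 in *fio1-1* and 79.6 and 70.5 in *fio1-2*. It rose by 1.23 (SE 0.0979) and by 1.63 (SE 0.0932) on the log2 scale, and *fio1-2* exceeded *fio1-1* by 0.40 (SE 0.0718), past the limma-voom adjusted p (9.35e-06) and under the fold change minimum. COR15B and RAB18 each overlap a gene on the opposite strand (AT2G42520 and AT5G66410).

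AT3G02480, a LEA_4 gene, stood between both patterns. It was at 9.71 and 8.37 CPM in Col-0, 32.9 and 35.3 in *fio1-1* and 57.3 and 61.0 in *fio1-2*, in separate steps. It rose by 1.91 (SE 0.146) in *fio1-1* and by 2.71 (SE 0.139) in *fio1-2* on the log2 scale. The 0.80 between the mutants (SE 0.0845) passed the limma-voom adjusted p (5.29e-12) but fell short of the fold change minimum. DI21 (AT4G15910), a LEA_3 gene named for its induction by drought, was at 41.1 and 40.3 CPM in Col-0, 88.7 and 80.0 in *fio1-1* and 94.6 and 93.6 in *fio1-2*. It rose by 1.05 (SE 0.0783) and by 1.21 (SE 0.0758) on the log2 scale. Without *fio1-1* replicate 1 the former was 0.97 and not called.

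Upstream stretches of 3 of these genes and of LTI30, a cold-induced dehydrin gene that was not called, are shown in the same way for comparison. They are AT3G02480 at chr3:512160-512219 (plus strand), COR15A at chr2:17712350-17712409 (minus strand), RAB18 at chr5:26519551-26519610 (minus strand) and LTI30 at chr3:18940542-18940601 (plus strand).

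AT3G02480: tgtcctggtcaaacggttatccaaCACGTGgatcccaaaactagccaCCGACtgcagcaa
COR15A: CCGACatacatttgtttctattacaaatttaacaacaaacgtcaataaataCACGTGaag
RAB18: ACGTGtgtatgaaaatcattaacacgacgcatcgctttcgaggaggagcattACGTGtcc
LTI30: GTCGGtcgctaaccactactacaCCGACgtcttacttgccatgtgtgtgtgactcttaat

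These stretches are parts of longer windows. Within the 500 bases, LTI30 holds 1 ABA-responsive core and 3 cold- and drought-responsive cores, and RAB18 holds 4 and 1, so both kinds of letters occur in the uncalled gene and in the called one.

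The most abundant LEA genes changed by less than the fold change minimum, with 1 exception. SAG21 (AT4G02380) is a LEA_3 gene tied to senescence and oxidative stress. It overlaps AT4G04125 on the same strand, so its counts are uncertain. SAG21 was at 252 and 255 CPM in Col-0, 157 in each *fio1-1* library and 132 and 117 in *fio1-2*. In *fio1-2* it fell by 1.04 on the log2 scale (SE 0.0504, limma-voom adjusted p = 7.85e-28) and in *fio1-1* it fell by 0.69 (SE 0.0495, limma-voom adjusted p = 2.59e-19), the latter not called. Without *fio1-2* replicate 2 the value in *fio1-2* was -0.94 and no longer called. AT1G54410, a small dehydrin gene, was the most abundant of all at 2753 and 2494 CPM in Col-0, 2056 and 2086 in *fio1-1* and 2033 and 1935 in *fio1-2*. Changes of -0.34 (SE 0.0253) and -0.40 (SE 0.0247) on the log2 scale were past the limma-voom adjusted p (1.76e-18 and 1.19e-22).

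The dehydrin genes COR47, ERD10, ERD14 and LTI30 went separate ways in small steps. COR47 (AT1G20440) was at 497 and 488 CPM in Col-0, 421 and 414 in *fio1-1* and 475 and 461 in *fio1-2*, lower in *fio1-1* by a log2 fold change of -0.24 (limma-voom adjusted p = 2.2e-07). ERD10 (AT1G20450) was at 94.95 and 98.0 CPM in Col-0, 107 and 113 in *fio1-1* and 159 and 158 in *fio1-2*, with log2 fold changes of 0.19 and 0.72 and a difference of 0.53 between the mutants (limma-voom adjusted p = 2.05e-12). ERD14 (AT1G76180) was at 248 and 241 CPM in Col-0, 272 and 290 in *fio1-1* and 292 and 298 in *fio1-2*, with log2 fold changes of 0.20 and 0.27. COR47 and ERD10 are neighbours whose coding sequences share 73.5% of their bases, and the one was lower in *fio1-1* while the other was higher in *fio1-2*. LTI30 (AT3G50970) was at 51.1 and 51.0 CPM in Col-0, 50.3 and 57.4 in *fio1-1* and 43.1 and 41.8 in *fio1-2*. It was lower in *fio1-2* than in Col-0 by -0.27 and lower than in *fio1-1* by -0.34 on the log2 scale, both past the limma-voom adjusted p (0.00731 and 0.000845). In *fio1-1* its value was 0.07, and -0.02 without *fio1-1* replicate 2.

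The LEA_2 genes encode folded proteins, unlike the other classes, and none of the 3 was called. LEA14 (AT1G01470) was at 90.9 and 95.1 CPM in Col-0, 103 and 108 in *fio1-1* and 119 and 113 in *fio1-2*, with log2 fold changes of 0.18 and 0.31 (limma-voom adjusted p = 0.0199 and 1.64e-05). AT2G44060 was at 169 and 158 CPM in Col-0, 151 and 146 in *fio1-1* and 151 and 162 in *fio1-2*. By the limma-voom adjusted p alone, *fio1-1* had 1 of the 3 higher and 1 lower and *fio1-2* had 2 higher, while edgeR and DESeq2 called 0. AT2G46140, the third, had a log2 fold change of 0.50 (SE 0.158) in *fio1-2*. AT2G23120, a PvLEA18 gene, was higher in both mutants, at 145 and 136 CPM in Col-0, 246 and 228 in *fio1-1* and 217 and 240 in *fio1-2*, but its log2 fold changes of 0.76 and 0.71 stayed under the minimum. It overlaps AT2G23118 on the opposite strand.

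Of the genes called in *fio1-1* alone, 1 was higher and 1 lower. AT4G38410, a dehydrin gene, was at 1.64 and 1.06 CPM in Col-0, 2.98 and 2.68 in *fio1-1* and 1.72 and 1.61 in *fio1-2*. Its call in *fio1-1* (log2 fold change 1.08, limma-voom adjusted p = 0.035) was lost with DESeq2, without the filter on low counts and without any Col-0 or *fio1-1* library, and the difference between the mutants of -0.76 did not pass (limma-voom adjusted p = 0.147). UNE15 (AT4G13560), a LEA_4 gene named after a mutant with unfertilized embryo sacs, had 23 and 19 counts in Col-0, 3 and 3 in *fio1-1* and 16 and 16 in *fio1-2*. In *fio1-1* it fell by 2.61 on the log2 scale (SE 0.622, limma-voom adjusted p = 0.000688) and was lower under all 14 other fits as well. *fio1-2* was above *fio1-1* by 2.01 (SE 0.638; limma-voom adjusted p = 0.0182), a call lost with DESeq2, without either *fio1-1* library and without *fio1-2* replicate 1. UNE15 overlaps AT4G06105 on the opposite strand and AT4G06110 on the same strand, so its counts are uncertain.

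RAB28 (AT1G03120), AT2G18340 and LEA3 (AT1G02820) were not called at their low counts. RAB28, an SMP gene, had 2 and 6 counts in Col-0, 11 and 8 in *fio1-1* and 12 and 14 in *fio1-2*, with a limma-voom adjusted p of 0.144 and 0.0595, and the unadjusted p in *fio1-2* was under 0.05. Of the 10 genes not tested, AT2G03740, AT2G33690 and AT3G53770 had 0 counts in all libraries, which allows up to 0.149 CPM in Col-0 and in *fio1-1* and 0.127 CPM in *fio1-2*. AT5G53270, an SMP gene, had 0 counts in Col-0 and *fio1-1* and 5 and 10 in *fio1-2*, at least 4.29-fold higher than Col-0, and was called in a fit without the filter. AT4G39130, a dehydrin gene, had counts of 2 in *fio1-1* replicate 2 and 8 in *fio1-2* replicate 2 and 0 in the 4 others. ATECP31 (AT3G22500) had 1 count in *fio1-1* replicate 1 and 5 in *fio1-2* replicate 2. The other 4, AT5G53260, AT5G27980, AT2G03850 and AT4G13230, had no more than 4 counts in a library.

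By class, LEA_4 held more called genes than any other. Of 15 LEA_4 genes tested, 9 were called higher in *fio1-1* and 13 in *fio1-2*, with UNE15 lower in *fio1-1*, and 5 of the 15 had passed the filter only through *fio1-2*. Of 6 SMP genes 2 were tested, with 0 called in *fio1-1* by limma-voom, edgeR or DESeq2, none at an unadjusted limma-voom p under 0.05, and 1 in *fio1-2*. Of the 9 dehydrins tested, 2 were called higher in *fio1-1* (RAB18 and AT4G38410) and 3 in *fio1-2* (LEA, XERO1 and RAB18). In *fio1-2*, all genes tested of LEA_1 (3), AtM (2) and LEA_5 (2) were called higher. In *fio1-1*, both AtM genes were, and none of LEA_1 or LEA_5. Of 3 LEA_2 genes tested, 0 were called higher in either mutant, and of 3 LEA_3 genes 1 in each. Of 2 PvLEA18 genes tested, 0 were called higher in *fio1-1* and 1 in *fio1-2*. EM1, M10, LEA, XERO1, AT2G23110 and both SMP genes tested had passed the filter only through *fio1-2*. Of all genes tested, 2.92% were called higher in *fio1-1* and 4.24% in *fio1-2*. The median log2 fold change was 1.88 and 4.17 in LEA_4 and 0.19 and 0.32 in the dehydrins. The differences between classes were not tested.

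The levels per kb of exon placed the genes in another order than CPM. In Col-0, AT1G54410 led at 2357 CPM per kb, followed by SAG21 at 262, COR47 at 212, ERD14 at 207 and AT2G23120 at 177. In *fio1-2* the order was AT1G54410 at 1783, AT2G23120 at 289, ERD14 at 250, COR47 at 202 and SAG21 at 129, and AT3G02480 moved from place 13 in Col-0 (16.4) to place 7 (108).

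Genes that mark other tissues, and regulators, were read in the same libraries. The list of seed storage and oil body markers held 12 genes, namely those of albumins, cruciferins and oleosins of the embryo, and PER1. They summed to 2.76 and 2.21 CPM in Col-0, 47.6 and 46.2 in *fio1-1* and 9006 and 9330 in *fio1-2*. Of them 11 were called higher in *fio1-1* and 12 in *fio1-2*, and SESA1, SESA2, SESA5 and CRU3 were at 0 in both Col-0 libraries, and the other 8 had between 1 and 25 counts in sum there. OLEO4, not called in *fio1-1*, had 15 and 10 counts in Col-0 and 10 and 14 in *fio1-1*. They moved in the same order as the seed-type LEA genes, and their part in the LEA differences was not tested. The 5 floral organ genes summed to 7.87 and 8.18 CPM in Col-0, 8.54 and 7.45 in *fio1-1* and 17.4 and 18.4 in *fio1-2*, with AG at 0 in every library and SEP3, the 1 gene of them tested, called higher in *fio1-2*. The 4 leaf genes summed to 20703 and 20472 CPM in Col-0, 24828 and 23852 in *fio1-1* and 20260 and 20997 in *fio1-2*. LHCB2.1 among them was called higher in both mutants (log2 fold changes 1.47 and 1.82), and the other 3 in neither. Their log2 fold changes in *fio1-1* and *fio1-2* were 0.15 and -0.25 for RBCS1A, 0.51 and 0.55 for CAB3, and 0.15 and 0.05 for PSBO1. The 3 root genes summed to 1620 and 1599 CPM in Col-0, 1681 and 1722 in *fio1-1* and 2236 and 2182 in *fio1-2*. What part these markers have in the LEA differences was not tested.

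**Figure D4:**
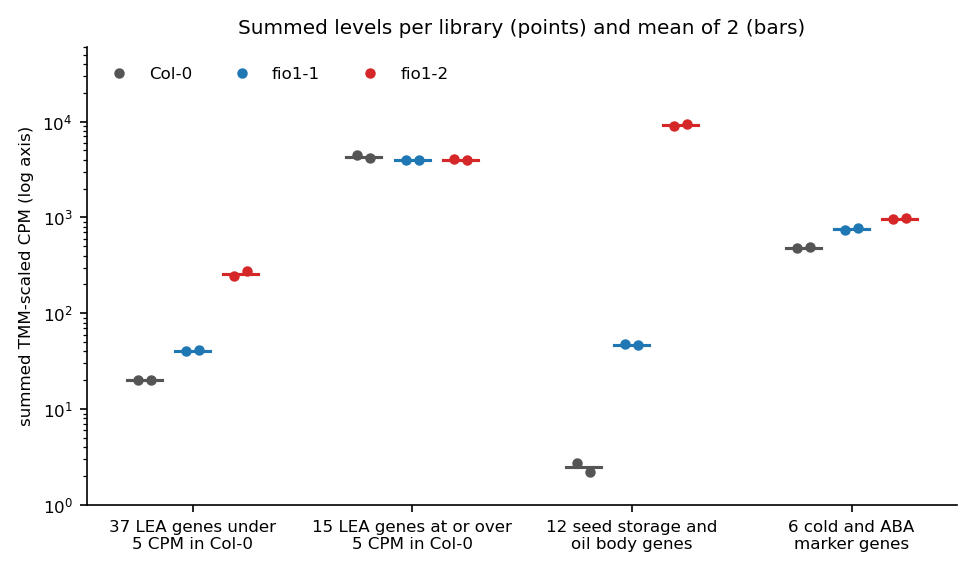
Summed TMM-scaled CPM per library (points) and mean of 2 libraries (bars) on a log axis. The sets are LEA genes under and over 5 CPM in Col-0, and a seed set of storage and oil body genes with PER1. The last set is 6 marker genes of cold and ABA that are not LEA genes. The LEA genes under 5 CPM climb from about 20.1 CPM in Col-0 to 260 CPM in *fio1-2*, and the seed set from 2.49 to 9168 CPM. The LEA genes over 5 CPM stay between 3945 and 4452 CPM.

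Among 11 regulators of seed maturation, 7 were tested. EEL, a bZIP gene, was called higher in *fio1-1* (log2 fold change 1.05, limma-voom adjusted p = 0.0052). In *fio1-2*, ABI3, FUS3, DPBF2 and EEL were called higher. FUS3 had 0 and 1 counts in Col-0, 2 and 0 in *fio1-1* and 17 and 19 in *fio1-2*. DPBF2 had 6 and 2 counts in Col-0, 0 and 2 in *fio1-1* and 51 and 42 in *fio1-2*. Both passed the filter only through *fio1-2*, so their calls describe how they came to be tested. ABI3, which encodes a B3 factor needed for the maturation program, had 7 and 11 counts in Col-0, 14 and 5 in *fio1-1* and 72 and 67 in *fio1-2*, a log2 fold change of 2.67 (SE 0.431) in *fio1-2*. ABI5, which encodes the bZIP factor of the Em genes, was not called, with log2 fold changes of -0.80 (limma-voom adjusted p = 0.0498) and 0.17 (limma-voom adjusted p = 0.652). Of 9 regulators of vegetative stress responses, 6 were tested and 0 were called by limma-voom, edgeR or DESeq2. By the limma-voom adjusted p alone, *fio1-1* had 1 higher and 3 lower and *fio1-2* had 2 higher and 2 lower. ABF3 was higher in both mutants (log2 fold changes 0.39 and 0.77) and ABF2 lower in both (-0.73 and -0.31). DREB2A was lower in *fio1-2* (-0.81, limma-voom adjusted p = 0.000217). CBF1, CBF2 and DREB1A, which drive COR genes in the cold, had between 0 and 6 counts in a library. Of 6 cold and ABA markers outside the LEA family, 3 were called higher in *fio1-1* (LTI65, KIN1 and KIN2) and 5 in *fio1-2*. Among the latter, GolS3 passed the filter only through *fio1-2*. It had 1 and 3 counts in Col-0, 5 and 2 in *fio1-1* and 15 and 18 in *fio1-2*. KIN1, which lies beside its close copy KIN2, rose by 2.07 and 1.55 on the log2 scale, and KIN2 by 1.44 and 1.65.

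The upstream letters were then counted in 500 bases before the start codon, on both strands. ACGTG was present in 43 of the 52 LEA genes and in 34.8% of all 27437 protein-coding genes. CATGCA was present in 16 of the 52 and in 14.3% of all, and CCGAC in 29 of the 52 and in 23.3% of all. Of the 22 genes under 5 CPM in Col-0 that were called higher in *fio1-2*, 21 held ACGTG, 9 held CATGCA and 16 held CCGAC. Of the 5 genes at or over 5 CPM called higher in both mutants, 4 held ACGTG, 0 held CATGCA and 4 held CCGAC. Among the 10 genes at or over 5 CPM that were not called higher, the counts were 8, 2 and 6. M17, called higher in both mutants, and DI21 held no ACGTG in this window. The windows reach into annotated leaders, and a match is a run of letters and not a site.

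Several LEA genes lie side by side. COR15B and COR15A are 7 bases apart as annotated on chromosome 2, share 82.6% of their coding bases, and both rose in both mutants without a called difference between them. AT2G42560 lies 2307 bases from COR15A and was called higher in *fio1-2* and not in *fio1-1*. LTI30 and XERO1 lie 313 bases apart on chromosome 3 with 46.3% identity, and of these XERO1 was higher in *fio1-2* while LTI30 was lower by a log2 fold change of -0.27. AT2G23110 and AT2G23120 lie 475 bases apart with 62.5% identity. M17 and M10 lie 1998 bases apart and kept the same order of genotypes. Only AT5G53260 and AT5G53270 shared an exact coding run of at least 40 bases (99 bases), and whether reads were divided between them was not tested.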

How the data were processed

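RNA-seq counts per gene were analysed for 6 libraries, 2 each of Col-0, *fio1-1* and *fio1-2*. The deposited values are raw read counts. The authors trimmed reads with Trim Galore 0.6.3, aligned them to TAIR10 with HISAT2 2.1.0 and counted them per gene with HTSeq 0.9.1, as the submitters' processing notes and the methods of the study give it. The strand setting and the annotation release are not given in the sources used here, so genes that overlap on opposite strands are uncertain. Genes that overlap on the same strand are uncertain too, as are close copies. The authors also deposited 2 tables of their own limma 3.38.3 comparisons (log2 fold changes, mean log2 CPM, p-values and moderated statistics), which were not used.

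Counts were scaled with TMM factors and all 6 libraries entered 1 limma-voom fit (R 4.3.3, limma 3.58.1, edgeR 4.0.16) with a mean per genotype and 3 residual degrees of freedom, after filterByExpr, which kept 21268 of 32833 genes. Adjusted p-values are Benjamini-Hochberg values over all genes tested. The fit was tested on simulated counts with 200 genes changed per mutant. An exact permutation test of single values with 2 libraries a group has too few arrangements to pass the threshold and was not made. The alternatives were edgeR, DESeq2 1.42.0, other size factors, no low-count filter, a robust variance prior, fits of the compared groups alone, a replicate block and each library left out, 14 fits in all, and the adjusted p alone.

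The 52 members, the classes, the marker lists and the tests were chosen with earlier results of these data known. All members are named or counted. Values per library are given for members called in at least 1 contrast, and for those past the adjusted p alone with a Col-0 mean of at least 10 CPM. Coordinates, exon lengths and upstream sequences come from RefSeq TAIR10.1 and were matched by locus identifier. The count files carry no coordinates. Counting intervals are exact at 95% and cover counting error only.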

Additional observations from a re-analysis of the deposited data

How the results depend on the processing

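Limits were set by depth for genes with few counts and by 2 libraries per genotype. Of 1407 values of single genes under 15 alternatives, 1329 kept their direction and their side of the threshold, 55 were no longer called, 19 passed only because the fold change minimum was dropped, and 4 changed sign, none of them a called value. Those were LTI30 (AT3G50970) in *fio1-1*, at -0.02 without *fio1-1* replicate 2 and -0.023 to 0.164 over the libraries left out; COR15B (AT2G42530) between the mutants, at 0.02 without *fio1-2* replicate 2 and -0.129 to 0.0236 over the libraries left out; and AT2G23120 between the mutants, at 0.01 without *fio1-1* replicate 1 and -0.122 to 0.021 over the libraries left out.

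The calls in *fio1-1* numbered 15 (14 higher and 1 lower). With each library left out these were 10 to 12, of which 9 to 11 were higher. DESeq2 called 11 and a fit of both groups alone 12, all among the 15. edgeR called 14, of which 12 were among them, without M10, AT4G36600 and AT5G44310 and with ECP63 and LEA4-5. The adjusted p alone passed 23, of which 5 were lower. In *fio1-2*, 28 were called, and 25 to 28 with each library left out. The count called lower was 0 without *fio1-2* replicate 2, where SAG21 was at -0.94, and the adjusted p alone passed 3 lower. Between the mutants 21 were called, 18 to 21 with each library left out, and 18 by DESeq2, and the adjusted p alone passed 2 lower. Without the filter, AT5G53270 was called as well in *fio1-2* and between the mutants. Where a group was left with 1 library, that library was assumed to vary like the others.

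The replicate block gave 16, 27 and 21 called genes for the 3 contrasts, with ECP63 added in *fio1-1*. Deviations of libraries with the same replicate number correlated at 0.000309, -0.00432 and -0.0281 across genes, so no shared deviation by number was seen. Whether pools of the same number were grown together is not stated, and these values cannot settle it.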
